A study of Ovis aries with 18 samples.

Results

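Polyamine synthesis is one of the routes that uses up S-adenosylmethionine (SAM), the methyl donor made from methionine, and the salvage pathway returns the leftover sulfur compound to methionine. The genes described here were a fixed list of 8 sheep genes for these steps, ODC1, AMD1, SRM, SMS, SAT1, MTAP, OAZ1 and AZIN1. No cut on their measured values was used, but the list was chosen with earlier results of these data known. Of these, 6 were matched to the embryo count table, which held 20092 genes. OAZ1, the antizyme that binds ODC1 and sends it for degradation, and AZIN1, the inhibitor that takes the antizyme away from ODC1, were not analysed here. All 6 measured genes were among the 16488 genes kept for testing, in which more than 3 pools reached 15 counts.

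ODC1 turns ornithine into putrescine, the smallest polyamine and the start of the pathway. AMD1 removes the carboxyl group of SAM, and SRM and then SMS use the product to lengthen putrescine to spermidine and spermine. Each of these transfers leaves methylthioadenosine, which MTAP cleaves so that its sulfur can be built back into methionine. SAT1 acetylates spermidine and spermine for export or breakdown. Polyamines are small positively charged molecules that bind nucleic acids, and growing embryonic and trophoblast cells are known to need them.

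The embryos were blastocysts of Ovis aries, a mix of inner cell mass and trophectoderm according to the labels, and each sample was RNA from 5 embryos pooled by sire and dam. The 6 control pools came from rams Ram410, Ram423 and Ram444, with 2 pools each, on a basal diet. The 6 methionine pools came from rams whose basal diet had been top-dressed with 1.5 g of rumen-protected methionine before puberty, and Ram424 sired 4 of them, with 1 pool each from Ram498 and Ram511. The rams and the ewes were of the Polypay breed, and mating followed about 2 months after the supplement ended. Pools sired by the same ram are not independent. By the study design, the pools of a control ram came from a single ewe, so that sire and dam cannot be told apart there, and the ram with 4 pools was mated to 2 ewes that gave 2 pools each. The labels do not say which pools came from which of these ewes. The comparison between the diets asks whether the sire's supplement went with other transcript levels of these enzymes in his embryos. In pooled embryos, fewer cells of a type and less RNA per cell cannot be told apart.

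The counts of a pool summed to between 1173289 and 1554651 in the control group and between 1017847 and 2398589 in the methionine group. These sums are far below the reads per pool that the paper reports, and the cause was not tested. Values are given as CPM (counts of a gene brought to a common library total) scaled by the trimmed mean of M-values (TMM), a scaling that compares pools gene by gene but does not correct for transcript length, so levels are not compared between genes. Pools Embryo444_2 (control) and Embryo511_1 (methionine) stood apart from the rest. Their log2 CPM values correlated with those of the 10 other pools at r of 0.483 to 0.610, while the 10 correlated with each other at 0.805 to 0.956. The 9 trophectoderm markers in the table, of 12 listed, summed to 349 CPM in Embryo444_2 and 221 CPM in Embryo511_1, against 5309 to 14400 CPM in the others. KRT8, a keratin of trophectoderm, gave the largest part of this sum in the 10 pools. It had 5486 to 24131 counts in the 10 but 164 in Embryo444_2 and 43 in Embryo511_1. By gene, 6 of the 9 lay below all 10 pools in Embryo444_2 and 8 of the 9 in Embryo511_1. ELF5 was within the range of the 10 in both pools, and PAG11 was within it in Embryo444_2. EOMES was above the 10 in Embryo444_2, at 96.3 CPM against 24.1 to 67.9 CPM. The 3 inner cell mass markers, of 7 listed, summed to 98.4 and 214 CPM against 420 to 1195 CPM. POU5F1 and SALL4 lay below the 10 in both pools. NANOG was within their range, at 9.91 CPM in Embryo444_2 and 7.93 CPM in Embryo511_1 against 5.10 to 16.3 CPM. Of the 2 blood cell markers in the table, of 6 listed, PTPRC was above the 10 pools (121 and 254 CPM against 40.2 to 76.5 CPM) and CD68 below them (6.37 and 1.98 CPM against 8.60 to 38.8 CPM). TNP1, which encodes a protein of the spermatid nucleus, had 1017 counts in Embryo511_1 and 2 to 22 counts in the 10 pools, whereas ODF1, the other sperm marker in the table, had 4 counts there and 0 to 17 in the 10 pools. The diet estimates are therefore given with all 12 pools and with the other 10, which hold 5 pools per diet, and the means and count ratios are those of the 10.

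The measured genes were low in these pools, though not all of them and not the same ones. ODC1, SRM and SAT1 lay below every one of the 10 other pools in both Embryo444_2 and Embryo511_1, as did 12.9% of all tested genes. Embryo444_2 lay below all 10 for 5 of the 6 genes, with SMS as the exception, against 24.6% of all tested genes. Embryo511_1 lay below all 10 for 4 of the 6, with AMD1 and MTAP inside the range of the other pools, against 26.6% of all tested genes. ODC1 had 17 counts in Embryo444_2 (exact 95% Poisson interval 9.90 to 27.2, counting error only) and 53 in Embryo511_1 (39.7 to 69.3), where the 10 other pools had between 305 and 3011. SMS had 63.0 CPM in Embryo444_2, above all 5 other control pools, but 12.9 CPM, from 13 counts, in Embryo511_1. The part of the low marker levels in these values was not tested.

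**Figure D1:**
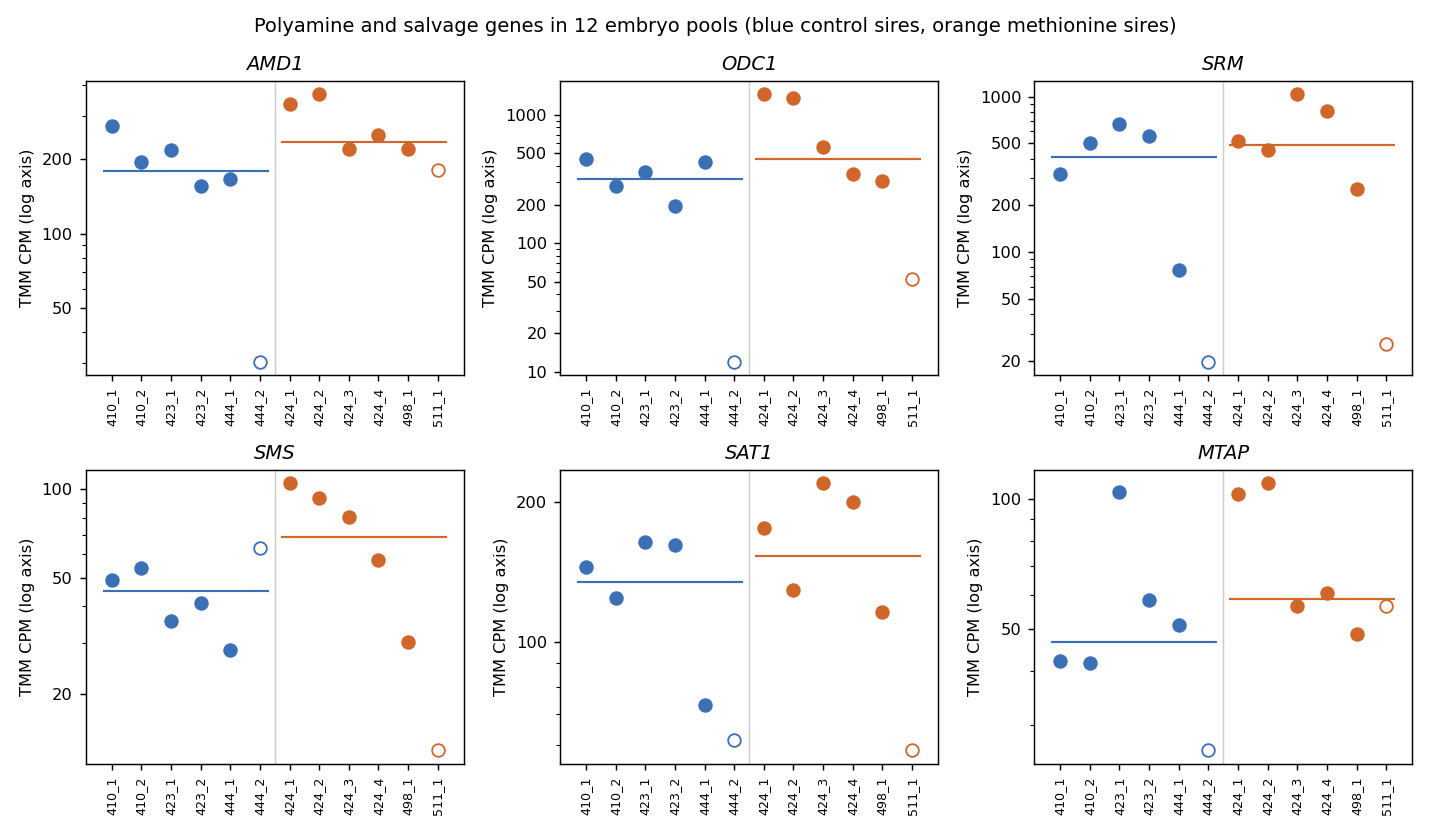
TMM-scaled CPM (log axis) of 6 genes in each of the 12 embryo pools, control in blue and methionine in orange, with open circles for Embryo444_2 and Embryo511_1 and a line at each group's median. ODC1 reached 1439 and 1347 CPM in Embryo424_1 and Embryo424_2, and the groups overlapped for every gene.

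All 6 measured genes had a higher fitted level in embryos of methionine-fed sires than in those of control sires, and none of the differences passed the test. ODC1 showed the largest estimate, at 2.35-fold with 12 pools and 2.31-fold with 10, and the other 5 ranged from 1.23-fold (SAT1) to 1.52-fold (AMD1) with 12 pools. In edgeR's quasi-likelihood test with a false discovery rate (FDR) of 0.05, 0 of the 6 genes and 0 of 16488 genes in all (0%) were called with 12 pools. At an unadjusted p under 0.05, 0 of the 6 genes passed against 7.92% of all genes. With 10 pools, ODC1 and SMS were past that unadjusted level, 2 of 6 against 11.9% of all genes (5.71% for higher levels alone), and 1 gene in the table, none of these 6, passed the FDR (0.00607%). With the ram as a random effect in limma, SMS was no longer past it with 10 pools (unadjusted p = 0.0661) and ODC1 was at its edge (0.04997), and 1118 genes in all were past it. An estimate above 0 was found for 6 of 6 genes with 12 pools and again with 10, beside 50.5% and 47% of all genes. The median log2 fold change of the 6 was 0.51 with 12 pools, where all genes had 0.005, and 0.49 with 10 pools, where all genes had -0.03. In no gene of the 6 were the groups free of overlap, in 12 pools or in 10, which 0.352% and 1.76% of all genes were.

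ODC1, the entry to the pathway, was 452, 278, 358, 196 and 429 CPM in the control pools Embryo410_1, Embryo410_2, Embryo423_1, Embryo423_2 and Embryo444_1. In the methionine pools Embryo424_1 to Embryo424_4 and Embryo498_1 it was 1439, 1347, 558, 348 and 304 CPM. Thus 3 pools of Ram424 lay above every control pool, and the other pool of that ram and the pool of Ram498 lay within the control range. The group means of these 10 pools were 342 ± 106 CPM (SD, n = 5) for control and 799 ± 552 CPM (SD, n = 5) for methionine. The log2 fold change was 1.21 (SE 0.41, unadjusted p = 0.00872, FDR 0.295, edgeR) with 10 pools and 1.23 (SE 0.73, FDR 0.695) with 12. With Embryo424_1 and Embryo424_2 summed into 1 pool, the 10-pool value was 0.93 (SE 0.40, unadjusted p = 0.0344, FDR 0.604, edgeR). The difference did not pass the adjusted test, and the highest levels were those of Embryo424_1 and Embryo424_2.

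AMD1, which commits SAM to polyamines, was 272, 194, 219, 156 and 166 CPM in the 5 control pools, in the order given for ODC1. The 5 methionine pools had 335, 366, 221, 250 and 221 CPM. All 5 methionine pools were above 4 of the 5 control pools, and Embryo410_1 was the control pool above 3 of them. The means were 201 ± 46.7 CPM (SD, n = 5) and 278 ± 67.6 CPM (SD, n = 5). The log2 fold change was 0.46 (SE 0.23, FDR 0.437, edgeR) with 10 pools. With 12 pools, where Embryo444_2 had 30.4 CPM and Embryo511_1 180 CPM, it was 0.60 (SE 0.39, FDR 0.719).

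SRM, the spermidine synthase, was 316, 502, 670, 559 and 77.3 CPM in the same 5 control pools. The 5 methionine pools had 517, 457, 1034, 813 and 254 CPM. The highest levels were in Embryo424_3 and Embryo424_4, which were not the pools with the most ODC1. Embryo444_1 was the lowest of the 10, at 109 counts (exact 95% Poisson interval 89.5 to 132), although it is a pool of the concordant set and had an ODC1 level near the top of the control range. The group means were 425 ± 233 CPM (SD, n = 5) and 615 ± 308 CPM (SD, n = 5), and the log2 fold change was 0.53 with 10 pools (SE 0.45, FDR 0.670, edgeR) and 0.53 with 12 (SE 0.75, FDR 0.869).

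SMS, the spermine synthase, was 48.9, 53.8, 35.7, 41.1 and 28.4 CPM in the control pools. In the methionine pools it was 105, 93.4, 80.5, 57.5 and 30.1 CPM. All 4 pools of Ram424 lay above the 5 control pools, and the pool of Ram498 lay below 4 of these 5. The means were 41.6 ± 10.2 CPM (SD, n = 5) and 73.3 ± 29.9 CPM (SD, n = 5). The log2 fold change was 0.81 (SE 0.30, unadjusted p = 0.0154, FDR 0.335, edgeR) with 10 pools and 0.49 (SE 0.39, FDR 0.757) with 12, which add the highest control pool and the lowest methionine pool.

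SAT1, the acetyltransferase of polyamine breakdown, was 145, 125, 164, 162 and 73.1 CPM in the control pools and 176, 130, 220, 201 and 116 CPM in the methionine pools. The groups overlapped widely, with 3 methionine pools of Ram424 above the highest control pool and Embryo444_1 again the lowest of the 10. The means were 134 ± 37.6 CPM (SD, n = 5) and 169 ± 44.7 CPM (SD, n = 5). The log2 fold change of 0.32 (SE 0.25, FDR 0.639, edgeR) with 10 pools, and 0.30 (SE 0.34, FDR 0.833) with 12, was about the size of its error.

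MTAP, which starts the salvage of methylthioadenosine, was 42.1, 41.8, 104, 58.4 and 51.1 CPM in the control pools and 103, 109, 56.5, 60.5 and 48.8 CPM in the methionine pools. A control pool, Embryo423_1, reached the level of Embryo424_1 and Embryo424_2, and the remaining pools of both diets lay between 41.8 and 60.5 CPM. The means were 59.4 ± 25.6 CPM (SD, n = 5) and 75.4 ± 28.1 CPM (SD, n = 5). The log2 fold change was 0.33 (SE 0.30, FDR 0.682, edgeR) with 10 pools and 0.43 (SE 0.32, FDR 0.748) with 12.

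The sign of the estimates rested on Ram424. Without its 4 pools, the methionine group of the 12-pool fit was Embryo498_1 and Embryo511_1, the latter a pool that stood apart. The estimate then fell to -0.68 (SE 0.96) for ODC1, -1.35 (SE 1.14) for SRM and -1.05 (SE 0.47) for SMS. It was -0.47 (SE 0.47) for SAT1 and -0.032 (SE 0.47) for MTAP, and AMD1 kept 0.22 (SE 0.59). Among the 10 pools, leaving out Ram424 leaves Embryo498_1 alone in the methionine group, assumed to vary as the control pools do, and the estimates were 0.13 for AMD1, -0.17 for ODC1, -0.75 for SRM, -0.46 for SMS, -0.20 for SAT1 and -0.28 for MTAP. In that comparison 1 of 6 genes had an estimate above 0, beside 44.2% of all genes, and the median was -0.24 beside -0.07 for all genes. Past an unadjusted p of 0.05 there were 0 of 6 genes in that comparison, beside 3.54% of all genes (2.1% higher and 1.44% lower), and past the FDR 0 of 6 beside 0.0121%. With the 12 pools summed by ram, so that 3 rams stood against 3, the log2 fold changes were 0.47 for AMD1, 0.63 for ODC1, -0.13 for SRM, -0.019 for SMS, -0.0031 for SAT1 and 0.27 for MTAP. In these sums Ram511 was Embryo511_1 alone and Ram444 included Embryo444_2, the 2 pools that stood apart. None of these passed the FDR. By ram, mean ODC1 was 923 CPM over the 4 pools of Ram424, 365 CPM for Ram410, 304 CPM for Ram498, 277 CPM for Ram423, 220 CPM for Ram444 and 52.5 CPM for Ram511. The value of Ram444 is the mean of 429 CPM in Embryo444_1 and 12.0 CPM in Embryo444_2, and without the latter Ram444 came after Ram424 and above Ram410 in this order. The rams from Ram410 to Ram444 differed by less than the spread between the pools of a ram, since the 2 pools of Ram410 were at 278 and 452 CPM and those of Ram423 at 196 and 358 CPM.

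**Figure D2:**
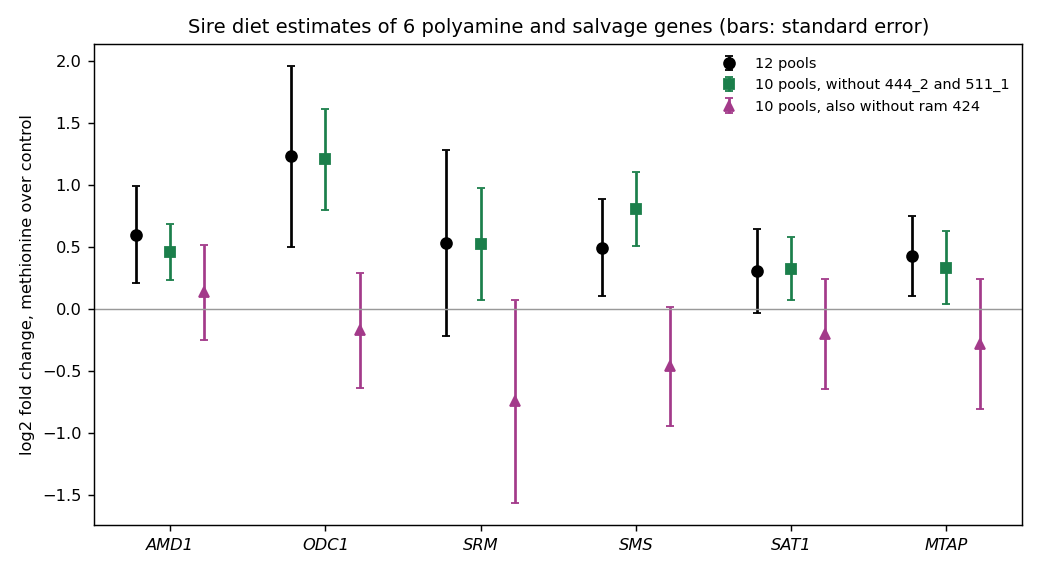
Log2 fold change of methionine over control for each gene, with standard errors, from 12 pools (black circles), from 10 pools without Embryo444_2 and Embryo511_1 (green squares), and from those 10 without Ram424 (purple triangles). Estimates from 12 and 10 pools are all above 0, and without Ram424 only AMD1, at 0.13, stays above 0.

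Within Ram424 the pools fell into pairs that differed by gene, a split noticed after the values were seen. Embryo424_1 and Embryo424_2 were higher than Embryo424_3 and Embryo424_4 in ODC1 (1439 and 1347 against 558 and 348 CPM), AMD1 (335 and 366 against 221 and 250 CPM), SMS (105 and 93.4 against 80.5 and 57.5 CPM) and MTAP (103 and 109 against 56.5 and 60.5 CPM). SRM and SAT1 ran the other way, with 517 and 457 against 1034 and 813 CPM for SRM and 176 and 130 against 220 and 201 CPM for SAT1. These pools share a sire and a diet but came from 2 ewes, whose part in the split was not tested, and ODC1 spanned 4.13-fold among them. Embryo424_1 and Embryo424_2 were also the most alike pair of the 12 pools over all genes (r of 0.956), and were kept as separate pools. When they were summed instead, the 10-pool log2 fold changes were 0.37 for AMD1, 0.93 for ODC1 and 0.61 for SRM. They were 0.69 for SMS, 0.37 for SAT1 and 0.20 for MTAP.

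ODC1 and SRM varied between pools more than most genes of their level. Over the 10 pools the SD of log2 CPM was 0.92 for ODC1, larger than that of 97.8% of the 179 genes within 0.5 log2 units of its mean level, whose median SD was 0.43. For SRM it was 1.05, larger than that of 98.4% of 193 such genes. SMS had an SD of 0.64 and exceeded 90.1% of genes of like level, while MTAP (0.52), SAT1 (0.46) and AMD1 (0.39) exceeded 78.9%, 72.2% and 49.6%. AMD1, the other decarboxylase of the pathway, thus had a spread near the middle for its level in the 10 pools. With 12 pools the SD rose to 1.86 for ODC1, 1.89 for SRM and 0.90 for AMD1, above 96.4%, 96.9% and 74% of genes of like level.

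The genes of the pathway did not vary as a single unit across pools. SRM and SAT1 ran closely together, with Pearson's r of 0.96 over 12 pools and 0.94 over 10 (Spearman's rho 0.92 over 10), and r was 0.77 without Embryo424_3 and Embryo444_1, the pools farthest from the median of SRM. ODC1 and SRM, the neighbouring enzymes that make and use putrescine, had r of 0.76 over 12 pools but 0.04 over 10 (rho -0.01). AMD1 and ODC1 had r of 0.89 over 12 pools and 0.84 over 10 (rho 0.77), and 0.52 once Embryo424_1 and Embryo424_2 were left out. ODC1 and SMS had r of 0.46 over 12 pools, 0.75 over 10 and 0.33 without Embryo424_1 and Embryo424_2. These coefficients describe pools that share sires, and several rest on a pair of pools, so no p-value is attached. The median r of each gene with all tested genes lay between -0.06 and -0.004 over 10 pools.

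**Figure D3:**
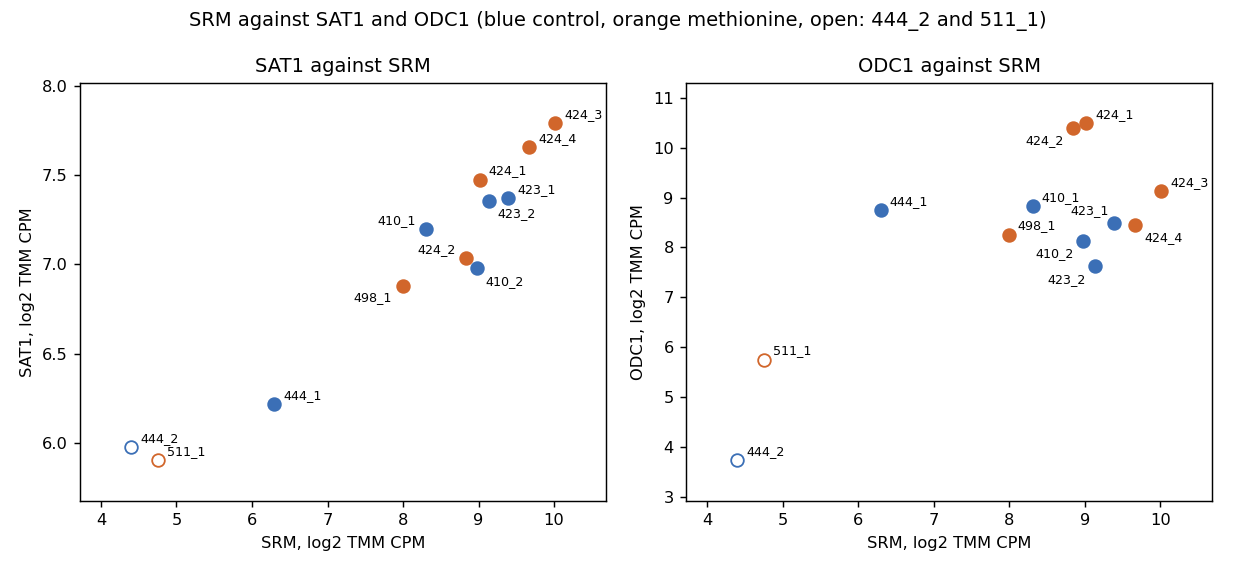
Log2 TMM CPM of SAT1 (left) and ODC1 (right) against SRM, a point per pool, control in blue, methionine in orange and open circles for Embryo444_2 and Embryo511_1. SAT1 follows SRM in the 10 pools (r of 0.94), whereas ODC1 follows SRM only through the open circles (r of 0.04 in the 10 pools). At the low end, SRM is 77.3 CPM in Embryo444_1, 19.8 CPM in Embryo444_2 and 25.8 CPM in Embryo511_1. SAT1 changes less there, at 73.1, 61.6 and 58.5 CPM in the same order.

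The ratio of ODC1 to SRM counts within a pool, which needs no scaling between pools, ranged 15.8-fold over the 10 pools. It was lowest at 0.350 in Embryo423_2 and highest at 5.54 in Embryo444_1, both control pools, and in Ram424 it was 2.79 and 2.95 in Embryo424_1 and Embryo424_2 but 0.539 and 0.428 in Embryo424_3 and Embryo424_4. The value 1 has no meaning of its own here, as the transcripts differ in length, and only the change between pools can be read. SRM to SAT1 counts ranged 4.44-fold, from 1.06 in Embryo444_1 to 4.70 in Embryo424_3, so SRM moved further than SAT1 where they moved together. AMD1 to ODC1 counts ranged 3.42-fold, from 0.233 in Embryo424_1 to 0.797 in Embryo423_2, and AMD1 to MTAP counts 3.06-fold.

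**Figure D4:**
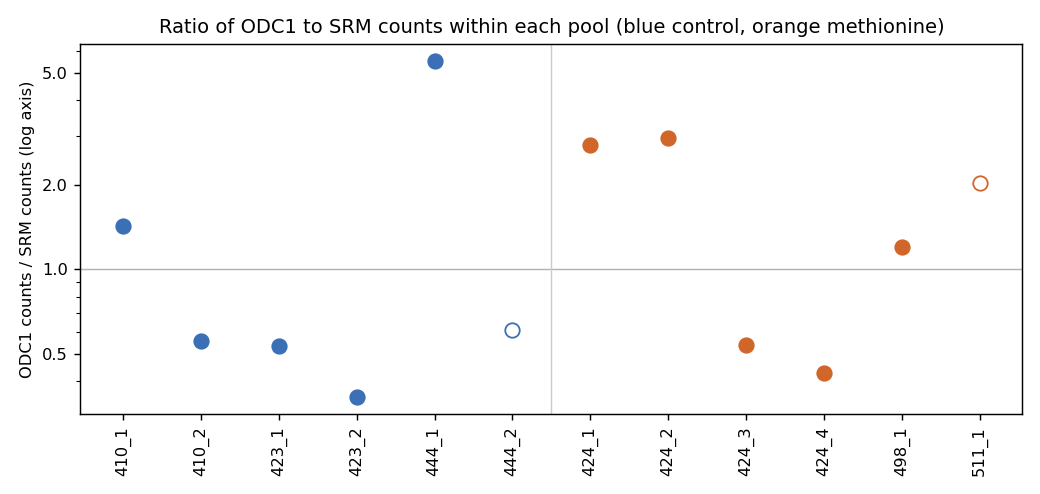
Counts of ODC1 divided by counts of SRM in each pool (log axis), control in blue, methionine in orange and open circles for Embryo444_2 and Embryo511_1. Values from 0.350 to 5.54 occur among the control pools alone, and the 4 pools of Ram424 split between 0.428 and 2.95.

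The genes most like each enzyme over the 12 pools, by Pearson's r of log2 CPM, changed with the pools and with the coefficient used. RBMX (r of 0.990), TKT and MORF4L2 were nearest to ODC1, and RPL4 (0.976), CALU and ESRRB to AMD1. CALD1 (0.970), DNTTIP2 and NAP1L1 were nearest to SRM, and ANP32E (0.951), LOC114110581 and LOC114110475 to SAT1. CEP44 (0.953), SLC25A36 and HACD2 were nearest to SMS, and LMBR1L (0.953) and RAI1 (0.953) were among the 3 nearest to MTAP. With 10 pools 0 of the 18 genes so ranked kept a place, and by Spearman's rho over 12 pools 3 of 18 did (CALD1 and DNTTIP2 for SRM, ANP32E for SAT1). Over 10 pools SLC6A8, the creatine transporter, came first for ODC1 (0.971), and TRMT10B was among the nearest genes of both SRM (0.940) and SAT1 (0.958).

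The other genes listed, 35 genes of polyamine and methionine metabolism and of the MYC proteins that act on it, lay on both sides of 0. Of these, 29 were in the table and 28 were tested, and 0 passed the FDR with either set of pools. With 12 pools 18 had a higher and 10 a lower fitted level in methionine pools (median log2 fold change 0.06, all genes 0.005), and with 10 pools 13 were higher and 15 lower (median -0.03, all genes -0.03). Without Ram424, 6 of the 28 lay above 0 in the 10-pool fit (median -0.32, all genes -0.07). At the unadjusted level, 2 were higher and 1 lower with 12 pools, against 3.55% and 4.37% of all genes, and 2 were higher and 2 lower with 10 pools, against 5.71% and 6.17%. SATL1 was under the count filter, and AZIN2, OAZ2, OAZ3, KYAT1, EIF5A and MYC were not analysed here.

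Among the genes that make and recycle SAM, AHCY, which splits the S-adenosylhomocysteine left by methyl transfer, was 171 ± 18.5 CPM (SD, n = 5) in control and 334 ± 107 CPM (SD, n = 5) in methionine pools of the 10. The control pools spanned 149 to 194 CPM and the methionine pools 146 to 411 CPM, so they overlapped. Its log2 fold change was 0.96 (SE 0.25, FDR 0.240, edgeR) with 10 pools, 0.88 (FDR 0.639) with 12 and -0.23 with 10 pools without Ram424. The SAM synthetase genes MAT1A, MAT2A and MAT2B had -0.03, 0.19 and -0.16 with 10 pools and 0.02, 0.17 and -0.19 with 12.

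In the salvage steps after MTAP, APIP, a dehydratase of the pathway, had the largest estimate above 0, at 0.71 (SE 0.33, FDR 0.408, edgeR) with 10 pools, 0.86 (FDR 0.619) with 12 and -0.20 with 10 pools without Ram424. MRI1, ENOPH1 and ADI1, which act beside it, had 0.12, -0.02 and -0.19 with 10 pools and 0.13, 0.05 and -0.13 with 12. GOT1, an aminotransferase, and IL4I1, an amino acid oxidase, had -0.46 and -1.08 with 10 pools but 0.08 and 0.11 with 12, where Embryo511_1 was the highest pool of its group for both.

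Back-conversion leads from spermine towards putrescine. Beside SAT1, the genes PAOX, SMOX and SAT2 were listed under this step and tested, SAT2 for its likeness to SAT1 only. PAOX, which oxidizes acetylated polyamines, was 28.4 ± 9.11 CPM (SD, n = 5) in control and 17.1 ± 2.26 CPM (SD, n = 5) in methionine pools of the 10. The control pools spanned 21.1 to 43.6 CPM and the methionine pools 15.2 to 20.5 CPM, without overlap. Among the 10 pools, groups were free of overlap for 1.76% of all genes. With 12 pools they overlapped for PAOX, as Embryo444_2 had 7.79 CPM. Its log2 fold change was -0.74 (SE 0.28, FDR 0.344, edgeR) with 10 pools, -0.62 (FDR 0.671) with 12 and -0.48 with 10 pools without Ram424. SMOX, the spermine oxidase, had -0.28 with 10 pools and 0.06 with 12, and SAT2, a relative of SAT1 in sequence, had -0.36 and -0.51. Without Ram424, SMOX had -0.10 and SAT2 0.004 in the 10-pool fit. AGMAT, which makes putrescine from agmatine without ODC1, had -0.69 (SE 0.33, FDR 0.432) with 10 pools, -0.73 (FDR 0.616) with 12 and -0.64 with 10 pools without Ram424. The genes of ornithine supply, ARG1, ARG2 and OAT, had 0.03, 0.07 and 0.33 with 10 pools and -0.04, 0.19 and 0.35 with 12.

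Of the polyamine transporters, ATP13A2, a lysosomal exporter, and ATP13A3 had 0.62 (SE 0.45) and 0.48 (SE 0.24), and ATP13A4 had -0.44 (SE 0.22) with 10 pools, and 0.55, 0.43 and -0.36 with 12. Without Ram424, ATP13A3 turned to -0.21 in the 10-pool fit, while ATP13A2 had 0.45 and ATP13A4 -0.25. DHPS and DOHH, which build hypusine from spermidine on the translation factor EIF5A, had -0.38 and 0.05 with 10 pools but -0.009 and -0.13 with 12, and EIF5A2 had 0.07 and 0.03. MYCN, a member of the MYC family of transcription factors that are known to activate ODC1, had 1.05 (FDR 0.620, edgeR) with 12 pools and 0.13 with 10, and Embryo511_1 held 167 CPM against 15.2 to 32.8 CPM in the other methionine pools. MAX, the partner of MYC proteins, had -0.004 with 12 pools and -0.13 with 10.

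**Figure D5:**
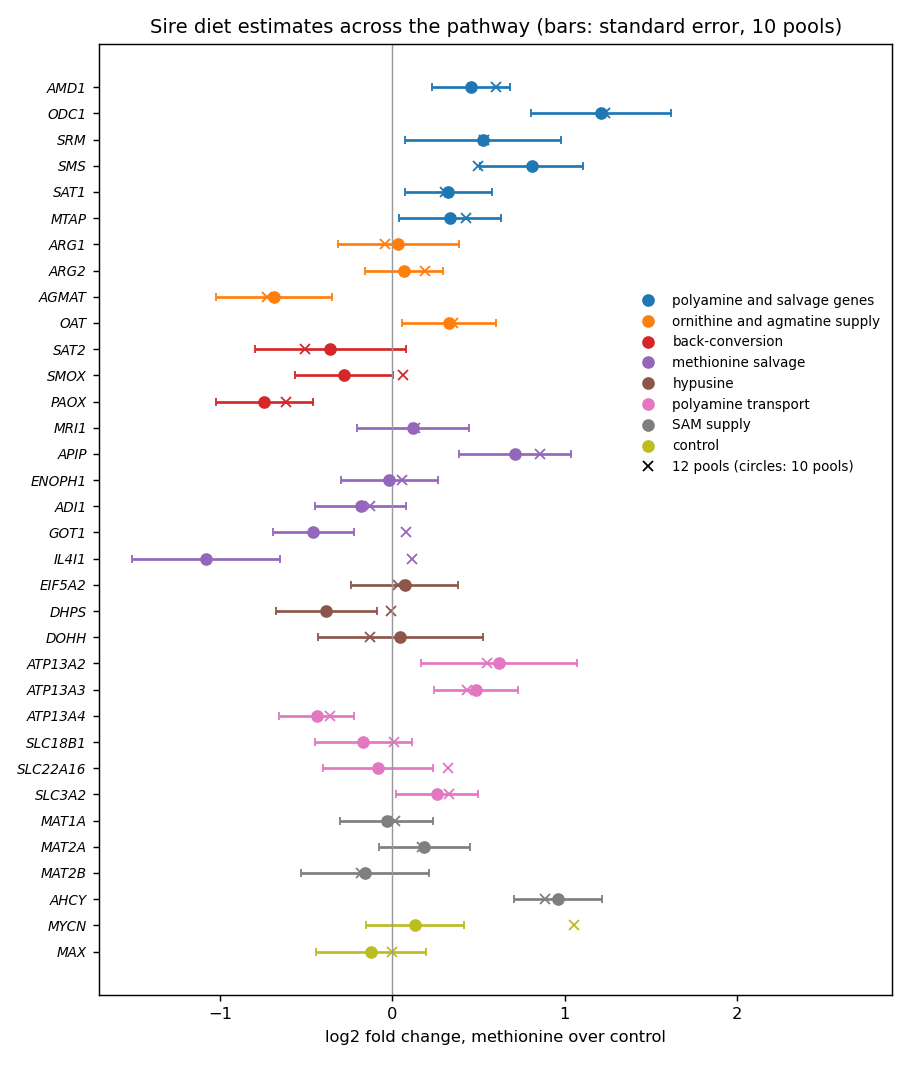
Log2 fold change of methionine over control for the 6 genes and 28 other genes of the pathway, with circles and standard errors for 10 pools and crosses for 12 pools, coloured by step. The 6 genes at the top all lie above 0, the others lie on both sides, and crosses part furthest from circles for IL4I1 and MYCN.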

How the data were processed

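RNA sequencing of 12 embryo pools was analysed, and sperm methylation was not used here. The authors amplified total RNA by whole transcriptome amplification, trimmed reads with Trimmomatic, aligned them to Oar_rambouillet_v1.0 with STAR and deposited raw counts per gene. The strand setting and molecular identifiers are not given in the sources used here, so intervals cover counting error only.

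A gene was kept if more than 3 pools reached 15 counts. Counts were scaled by TMM, and sire diet was tested in R 4.3.3 with edgeR 4.0.16 (quasi-likelihood F test, Benjamini-Hochberg FDR under 0.05). Log2 CPM used a prior count of 2. Alternatives were edgeR's likelihood-ratio test, DESeq2 1.42.0, a random ram effect in limma 3.58.1, other scalings and filters, pools summed per ram, and each pool or ram left out. Leaving out Embryo444_2 and Embryo511_1, and summing Embryo424_1 with Embryo424_2, were added after the data were seen. Scripts were tested on simulated data. Pools are treated as replicates, although pools of a ram share a sire, so p-values measure the spread between pools. Figures used matplotlib 3.10.9.

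The members and lists were chosen with earlier results of these data known. Named genes were the 8 members, the fixed pathway lists and the 3 genes most alike to each member by Pearson's r over 12 pools, of which 1 is not reported here. Those most alike over 10 pools, and the marker genes, were named after their values were seen.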

Additional observations from a re-analysis of the deposited data

Results flagged for a closer look

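In 68 groups of 6 pools (34 pathway genes, members included, in each diet), the highest or lowest pool was far from the rest of its group, by Dixon's test, 9 times. Chance would mark about 1 in 20 independent groups of normally distributed values. These groups reuse the same 12 pools, some of them of 1 sire, so that rate is only a rough guide. None of the 9 concerned ODC1, AMD1, SRM, SMS, SAT1 or MTAP. Embryo511_1, which stood apart over all genes, was the high pool in 5 of them, with 77.3 CPM for SMOX, 129.9 CPM for GOT1, 50.6 CPM for IL4I1, 137.8 CPM for SLC22A16 and 166.6 CPM for MYCN. Embryo444_2, the other such pool, was the low one for ARG2 at 9.91 CPM. The remaining 3 were in pools that did not stand apart, namely Embryo444_1 for ARG1 at 9.22 CPM, and Embryo424_3 for DOHH at 26.8 CPM and for ATP13A2 at 27.5 CPM.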

How the results depend on the processing

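No gene of the 6 passed the FDR under any setting run. With 12 pools the direction held in 147 of 156 other distinct fits of these genes, and with 10 pools in 97 of 102. These fits share most of their pools, so the shares are not independent evidence for a direction. Pools summed per ram turned SRM to -0.13, SMS to -0.019 and SAT1 to -0.0031, and a random ram effect in limma turned SRM to -0.10; the other reversals came from leaving out Ram424. Leaving out a pool or a ram gave, with 12 pools, AMD1 0.22 to 0.88, ODC1 -0.68 to 1.48, SRM -1.35 to 1.17, SMS -1.05 to 0.70, SAT1 -0.47 to 0.57 and MTAP -0.032 to 0.84, and with 10 pools AMD1 0.13 to 0.62, ODC1 -0.17 to 1.41, SRM -0.75 to 1.04, SMS -0.46 to 1.05, SAT1 -0.20 to 0.56 and MTAP -0.28 to 0.74. Over all genes, 0 were called with 12 pools (1306 at an unadjusted p under 0.05), 5 by the likelihood-ratio test, 16 by DESeq2 and 1 without Embryo444_2 and Embryo511_1. With those 10 pools, 1 was called, against 79 by the likelihood-ratio test, 107 by DESeq2, 0 by limma with the ram, 0 with Embryo424_1 and Embryo424_2 summed, and 0 to 2 with a pool or ram left out; the cause of these differences in count was not tested.

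No paired analysis was possible because each ram received only 1 diet. Levels were not ordered between genes per transcript length and sperm methylation at the start sites was not examined, with the alternatives planned for both, since neither transcript lengths nor an annotation of the build of the counts was used here. With 3 rams per diet and 4 of 6 methionine pools from Ram424, diet and ram cannot be told apart for most of the methionine group. At 13 counts for SMS and 17 for ODC1, the lowest pools carry wide counting intervals.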
